A study of Homo sapiens with 4 samples.

Results

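The genes described here encode RNA polymerase II and the factors that accompany it through elongation, a list of 41 genes chosen by name. They are 41 of the 58684 genes annotated on the main chromosomes. For each gene, reads that cross its splice junctions were summed over annotated introns (the gene total), and alternative or unannotated junctions inside the gene were examined one by one. Of the 41 genes, 40 gave gene totals that passed the filter on low counts. The remaining one, HEXIM1, which encodes an inhibitor of the elongation kinase P-TEFb, is a single-exon gene with no junction, and its level was not measured by this approach.

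RNA polymerase II pauses shortly after initiation, held by the factors DSIF and NELF. The kinase P-TEFb releases the pause by phosphorylating DSIF, NELF and the polymerase tail, after which CDK12 and CDK13, the super elongation complex, the PAF1 complex and histone chaperones travel with the enzyme across the gene. SF3B1 is the subunit of the U2 particle that helps recognise the branch point before the 3′ splice site, and its K700E substitution, which recurs in blood cancers, is known for the use of cryptic acceptors a short distance upstream of the normal ones.

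RNA bound to chromatin was sequenced from K562 cells, a human leukaemia line, in 2 libraries labelled SF3B1 wild type (WT) and 2 labelled SF3B1 K700E. Doxycycline at 1 µg/ml switched on the modified allele, and the labels give the same dose for the WT libraries. The titles of all 4 libraries give 4 days as the time of harvest. Chromatin was prepared in buffers with 25 µM α-amanitin, an inhibitor of the polymerase studied here, and the RNA was depleted of polyadenylated molecules 3 times and of ribosomal RNA. The labels do not say whether WT cells carry an inducible wild-type allele, whether each genotype is 1 clone, or whether replicates came from separate cultures; the p-values given here therefore reflect the spread among these 4 samples alone, and that spread may be technical.

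The 4 libraries held between 3582592 and 5322414 uniquely mapped junction reads, more in both SF3B1 K700E libraries than in either WT library, and the part of this depth difference in any result was not tested. The labels call the cells epithelial. Of 9 erythroid genes, 7 had at least 10 reads, and their summed level ran from 1274 to 1916 CPM (junction reads scaled to library size) with the genotypes overlapping. Of 6 epithelial genes, 4 had at least 10 reads, at 348 to 483 CPM in sum with the genotypes overlapping, while CDH1, which encodes the defining epithelial cadherin, was at 0. Lymphoid genes summed to between 1.26 and 3.31 CPM, again overlapping, with CD79A and MS4A1 at 0. Stromal genes summed to 35.5 and 42.4 CPM in WT and 28.3 and 23.7 CPM in SF3B1 K700E. Myeloid genes summed to 163 and 133 CPM in WT and 75.7 and 131 CPM in SF3B1 K700E, with CD14 and MPO at 0. Both of these sums were lower in both SF3B1 K700E libraries, and their part in any result below was not tested. Acceptors 10 to 30 nt upstream of annotated ones took 0.0425% ± 0.00433 (SD, n = 2) of junction reads over all genes in WT and 0.107% ± 0.0141 (SD, n = 2) in SF3B1 K700E. Every SF3B1 K700E library lay above both WT libraries on that measure, so the labels and the known splice-site preference of the mutant protein went the same way.

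No listed gene passed the test for a changed gene total. Under edgeR's quasi-likelihood test with Benjamini-Hochberg adjustment over 10827 genes, 0 of 40 reached an adjusted p of 0.05, where 0.933% of all genes tested did, 0.333% higher and 0.6% lower. Before adjustment, p was under 0.05 for 1 gene that was higher (POLR2A) and 2 that were lower (POLR2I and POLR2D), against 3.67% and 6.44% of all genes. DESeq2 and limma voom also called 0 of the 40, with 1 higher and 1 lower, and 1 higher and 2 lower, before adjustment. In 10 of 40 genes both SF3B1 K700E libraries lay above both WT libraries, where 19.4% of all genes did so, and in 5 of 40 both lay below, where 20.1% did. The median log2 change was 0.09 over the 40 genes and 0.00 over all genes tested. In 20 of the 40 the sign of the change turned when 1 of the 4 libraries was left out. Most of the set was well expressed, with 33 of 40 above the median level of tested genes, 32.9 CPM. A p that misses the threshold does not show that values did not differ.

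**Figure D1:**
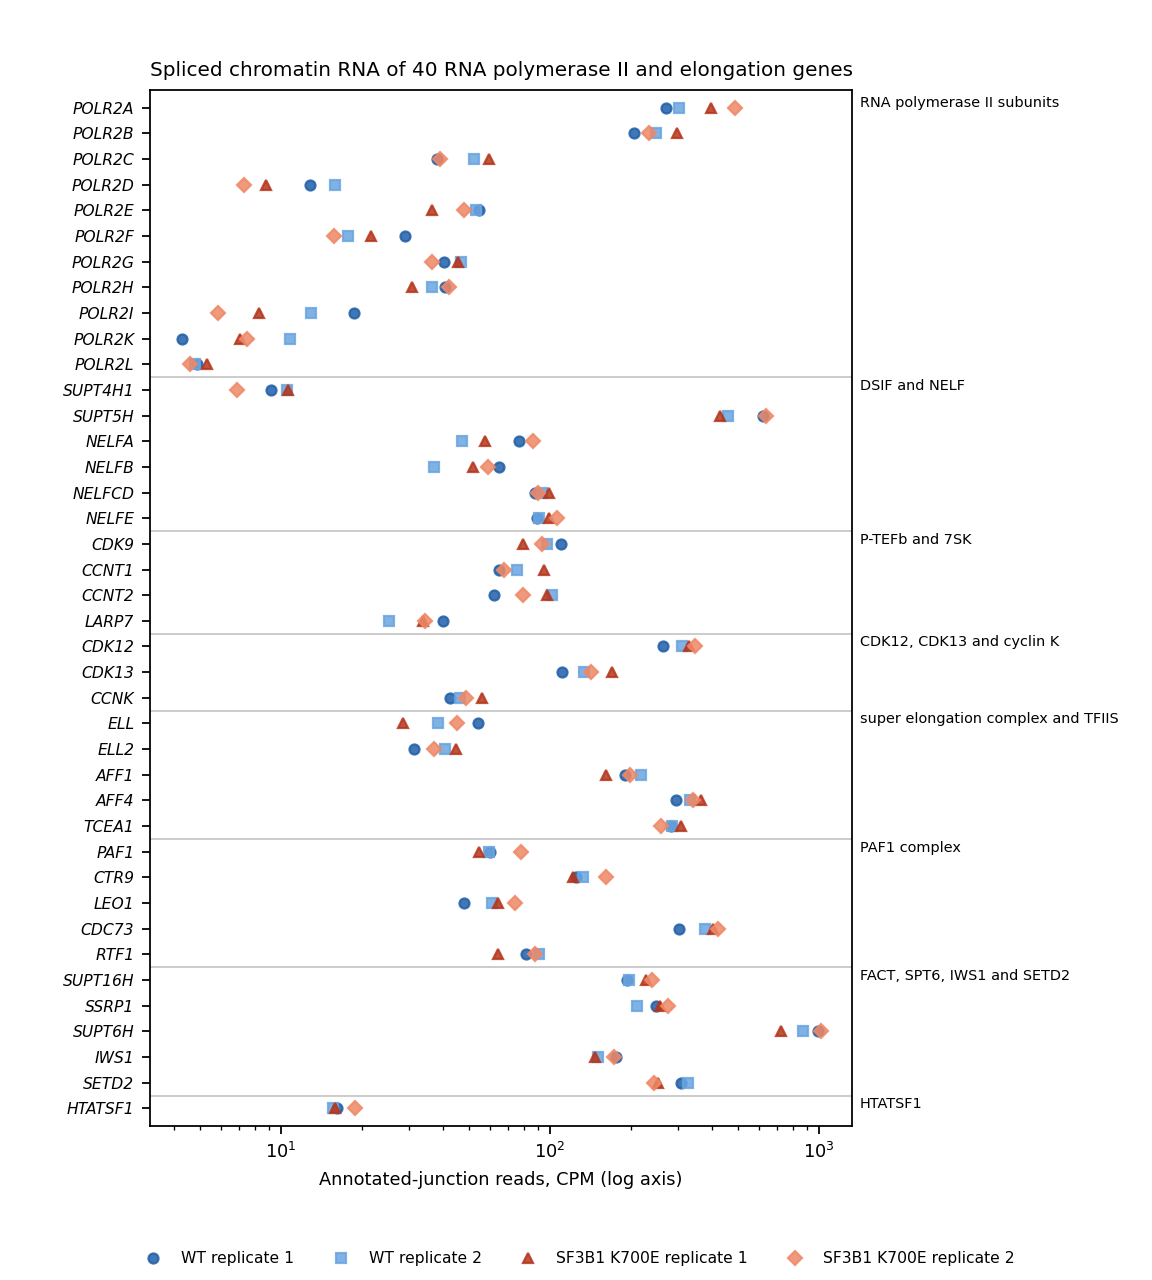
Gene totals of the 40 measured genes in each of the 4 libraries, in CPM of annotated-junction reads on a log axis, grouped by role. Blue markers are WT and red or orange markers are SF3B1 K700E; for most genes the markers of both genotypes interleave, while POLR2A lies to the right in both SF3B1 K700E libraries and POLR2I and POLR2D lie to the left.

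POLR2A encodes the catalytic largest subunit, the one that carries the repeated C-terminal tail, and it lies at chr17:7484366-7514616 on the plus strand (GRCh38). Its gene total was 269 and 303 CPM in the WT libraries and 398 and 487 CPM in the SF3B1 K700E libraries. Both SF3B1 K700E libraries were above both WT libraries. The log2 change was 0.63 (SE 0.22, edgeR adjusted p = 0.310), a ratio of 1.55. In bulk RNA a difference of this kind cannot be told apart from a change in the share of cells that express the gene.

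The higher POLR2A total was spread along the whole gene. All 28 introns of its most-read transcript had a higher mean in SF3B1 K700E, with log2 ratios from 0.27 to 1.00 and a median of 0.59 (0.5 CPM added to each mean). In 23 of the 28 the genotypes did not overlap, and in none were both SF3B1 K700E libraries lower; over 123530 annotated junctions of all genes, 18.9% lay apart in the higher direction and 17.1% in the lower. Introns of one gene come from the same libraries and are not independent of each other. Intron 1, the longest at 11083 nt, had 14.1 and 8.12 CPM in WT and 18.4 and 22.7 CPM in SF3B1 K700E. The last, intron 28, had 4.28 and 3.01 CPM in WT and 6.81 and 8.73 CPM in SF3B1 K700E. Thus introns at both ends of the gene had the same direction. Intron 8, one of 4 well-read listed introns that begin with GC in place of GT, had 17.4 and 15.3 CPM in WT and 24.7 and 28.7 CPM in SF3B1 K700E. Its log2 ratio of 0.69 lay between those of introns 7 and 9, at 0.51 and 0.96.

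The 2 other subunits with a small unadjusted p lay on the other side. They were singled out after their values were seen, because both lie below the median level of tested genes. POLR2I, a small subunit near the catalytic jaws that takes part in start-site choice and proofreading, had 18.6 and 12.9 CPM in WT and 8.33 and 5.82 CPM in SF3B1 K700E. Its log2 change was -1.16 (SE 0.39, edgeR adjusted p = 0.281), from 61 and 43 reads in WT and 33 and 28 reads in SF3B1 K700E. All 5 of its introns had a lower mean, and in 4 of the 5 the genotypes did not overlap. Of annotated junctions of all genes, 17.1% lay apart in the lower direction. The POLR2I introns rest on few reads from the same libraries and are not independent of each other. POLR2D, the subunit that with POLR2G forms the detachable stalk, had 12.8 and 15.9 CPM in WT and 8.83 and 7.28 CPM in SF3B1 K700E. Its log2 change was -0.84 (SE 0.37, edgeR adjusted p = 0.472), and all 3 of its introns had a lower mean. The POLR2D total leaves out reads at an unannotated acceptor described below. Its stalk partner POLR2G overlapped between genotypes, at a log2 change of -0.09.

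POLR2B, the second-largest subunit that completes the active centre, reached 206 and 247 CPM in WT and 298 and 233 CPM in SF3B1 K700E, so the genotypes overlapped. POLR2E, a small subunit shared by all the nuclear polymerases, had 54.4 and 52.9 CPM in WT and 36.6 and 47.8 CPM in SF3B1 K700E. Both SF3B1 K700E libraries were below both WT libraries, with a log2 change of -0.34 (SE 0.27, edgeR adjusted p = 0.770). The remaining subunits, the assembly-platform subunit POLR2C, the shared subunits POLR2F, POLR2H, POLR2K and POLR2L, and POLR2G, had log2 changes from -0.32 to 0.13 and overlapped between genotypes. POLR2K and POLR2L rest on few reads, at 4.28 to 10.8 CPM and 4.58 to 5.30 CPM across the libraries. Of the 11 subunits, 4 had a positive and 7 a negative log2 change, with a median of -0.08.

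**Figure D2:**
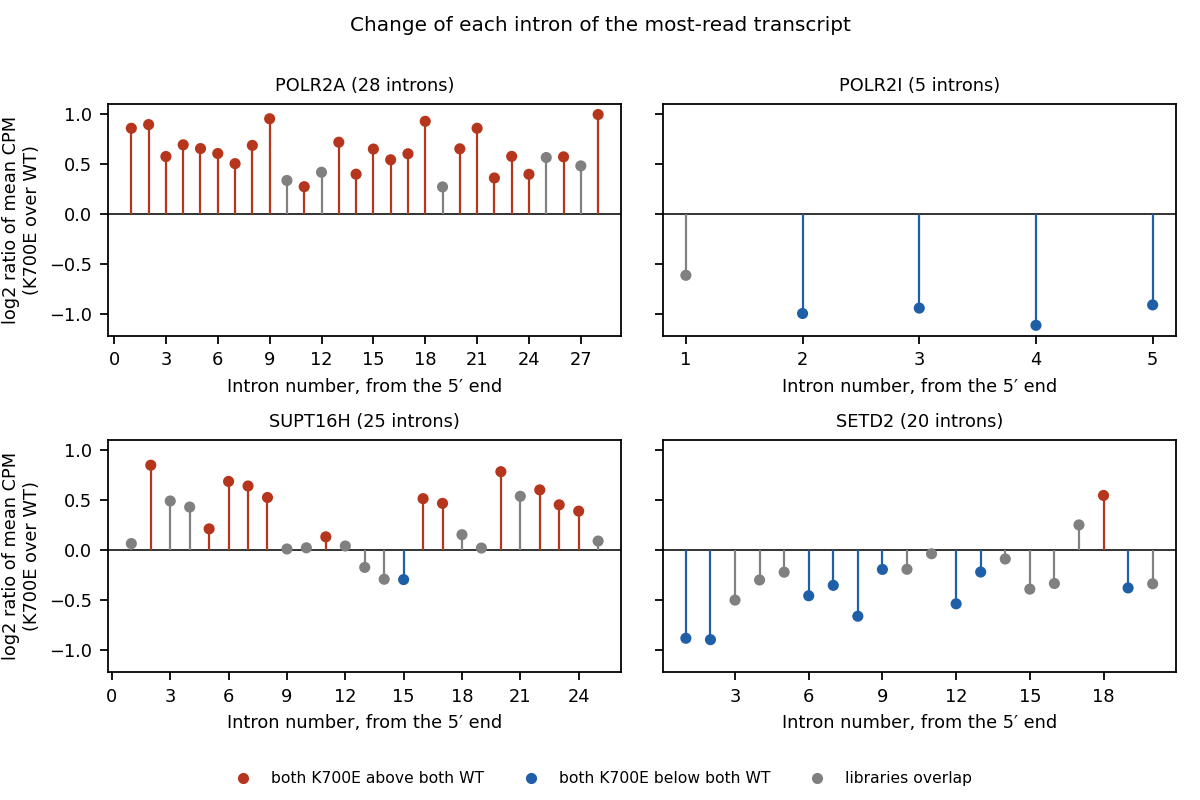
Log2 ratio of mean CPM in SF3B1 K700E over WT for each intron of the most-read transcript of POLR2A, POLR2I, SUPT16H and SETD2, by intron number from the 5′ end. Red marks introns where both SF3B1 K700E libraries exceeded both WT libraries and blue the reverse; every POLR2A intron is above 0 and every POLR2I intron below it, while SETD2 is below 0 except at introns 17 and 18.

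The pausing factors did not separate as a group. SUPT5H, the large DSIF subunit that clamps the polymerase and is a target of P-TEFb, had 618 and 459 CPM in WT and 429 and 635 CPM in SF3B1 K700E. The libraries of each genotype differed more from one another than the genotypes did, at a log2 change of -0.02 (SE 0.26, edgeR adjusted p = 0.995). NELFE, the RNA-binding subunit of NELF, had 89.2 and 91.1 CPM in WT and 99.1 and 107 CPM in SF3B1 K700E. Its libraries did not overlap, although the log2 change was only 0.19 (SE 0.23, edgeR adjusted p = 0.884). NELFA, NELFB and NELFCD, the other subunits of the complex, had log2 changes of 0.22, 0.12 and 0.06 with overlapping libraries. SUPT4H1, the small DSIF subunit, had a log2 change of -0.18 on 30 to 42 reads per library. In that gene 50% of annotated junction reads, 140 in all, fell in introns that the annotation also gives to an overlapping gene, AC004687.2, and were left out of its total.

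CDK9, the kinase of P-TEFb, had 110 and 97.4 CPM in WT and 79.7 and 93.4 CPM in SF3B1 K700E. Both SF3B1 K700E libraries were lower, with a log2 change of -0.26 (SE 0.24, edgeR adjusted p = 0.825), and 5 of its 6 introns had a lower mean. The cyclins that activate it, CCNT1 and CCNT2, had log2 changes of 0.21 and 0.12, and LARP7, which holds the 7SK RNA that keeps P-TEFb inactive, had 0.06. All of those overlapped between genotypes.

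The kinases of the later elongation phase and their cyclin all lay higher in both SF3B1 K700E libraries, though none passed the test. Of all genes tested, 19.4% lay higher in both. CDK12 had 264 and 310 CPM in WT and 330 and 348 CPM in SF3B1 K700E, a log2 change of 0.24 (SE 0.22, edgeR adjusted p = 0.824). CDK13, its close relative, had 111 and 133 CPM in WT and 170 and 142 CPM in SF3B1 K700E, a log2 change of 0.35 (SE 0.23, edgeR adjusted p = 0.712). CCNK, the cyclin K that both kinases bind, had 42.5 and 46.3 CPM in WT and 55.8 and 48.7 CPM in SF3B1 K700E. In each of these genes the gap between the nearest libraries of the genotypes was small.

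In the super elongation complex, which joins P-TEFb to ELL proteins on an AFF scaffold, the paralogs lay on either side of no change. ELL had 54.1 and 38.5 CPM in WT and 28.5 and 45.1 CPM in SF3B1 K700E, while its relative ELL2 had a log2 change of 0.18, both with overlapping libraries. The scaffold AFF1 had 189 and 217 CPM in WT and 161 and 198 CPM in SF3B1 K700E, which overlapped. The scaffold AFF4 had a log2 change of 0.17 with both SF3B1 K700E libraries higher. Whether the paralogs differ from each other was not tested. TCEA1, which encodes the factor TFIIS that rescues backtracked polymerase, had 281 and 285 CPM in WT and 308 and 258 CPM in SF3B1 K700E. Intron 5 of TCEA1 is the only listed intron with AT and AC ends, the kind often removed by the minor spliceosome, and its reads were 10.4 and 16.2 CPM in WT and 21.4 and 15.6 CPM in SF3B1 K700E, again overlapping.

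The PAF1 complex rides with the polymerase and is needed for histone H2B ubiquitylation. LEO1 had 48.0 and 60.7 CPM in WT and 64.3 and 74.5 CPM in SF3B1 K700E, a log2 change of 0.35 (SE 0.26, edgeR adjusted p = 0.749). CDC73, also known as the tumour suppressor parafibromin, had 302 and 377 CPM in WT and 404 and 421 CPM in SF3B1 K700E, a log2 change of 0.28 (SE 0.22, edgeR adjusted p = 0.775). In both genes the SF3B1 K700E libraries were the higher pair, and 15 of 16 introns of CDC73 had a higher mean. PAF1, the scaffold subunit, had 59.9 and 59.5 CPM in WT and 54.5 and 78.2 CPM in SF3B1 K700E, so one mutant library was below and one above WT. CTR9, which organises the complex, overlapped likewise at a log2 change of 0.14. RTF1, the subunit that stimulates H2B ubiquitylation, had 81.3 and 90.8 CPM in WT and 64.1 and 88.0 CPM in SF3B1 K700E, a log2 change of -0.18 (SE 0.26, edgeR adjusted p = 0.919).

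Both subunits of FACT, the histone chaperone that opens nucleosomes ahead of the polymerase, were higher in both SF3B1 K700E libraries. Of all genes tested, 19.4% were higher in this way. SUPT16H had 194 and 196 CPM in WT and 228 and 239 CPM in SF3B1 K700E, a log2 change of 0.26 (SE 0.21, edgeR adjusted p = 0.787). The difference was uneven along the gene: 22 of its 25 introns had a higher mean, with introns 13 to 15 on the other side. SSRP1 had 249 and 211 CPM in WT and 257 and 274 CPM in SF3B1 K700E. SUPT6H, the histone chaperone SPT6, had 992 and 869 CPM in WT and 721 and 1014 CPM in SF3B1 K700E, and its binding partner IWS1 had a log2 change of -0.03. Neither separated the genotypes. HTATSF1, a factor linked to both elongation and the U2 particle, had 15.6 to 18.9 CPM across all libraries.

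SETD2 encodes the methyltransferase that places trimethylation on histone H3 lysine 36 behind the polymerase, and lies at chr3:47016429-47163967 on the minus strand. Its gene total was 306 and 327 CPM in WT and 253 and 244 CPM in SF3B1 K700E. The genotypes did not overlap, and replicates were close, with a log2 change of -0.35 (SE 0.21, edgeR adjusted p = 0.673). Of its 20 introns, 18 had a lower mean in SF3B1 K700E. Intron 2 had 26.6 and 24.7 CPM in WT and 14.9 and 12.3 CPM in SF3B1 K700E. Intron 18, near the 3′ end, had 8.25 and 9.02 CPM in WT and 12.9 in both SF3B1 K700E libraries. Reads across intron 2 were therefore lower, and reads across intron 18 higher, in the SF3B1 K700E libraries. Intron 17 was the only other intron with a higher mean, so the introns nearest the 3′ end had a lower mean too. Reads into an unannotated exon inside intron 17, described below, are not part of the value for that intron.

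**Figure D3:**
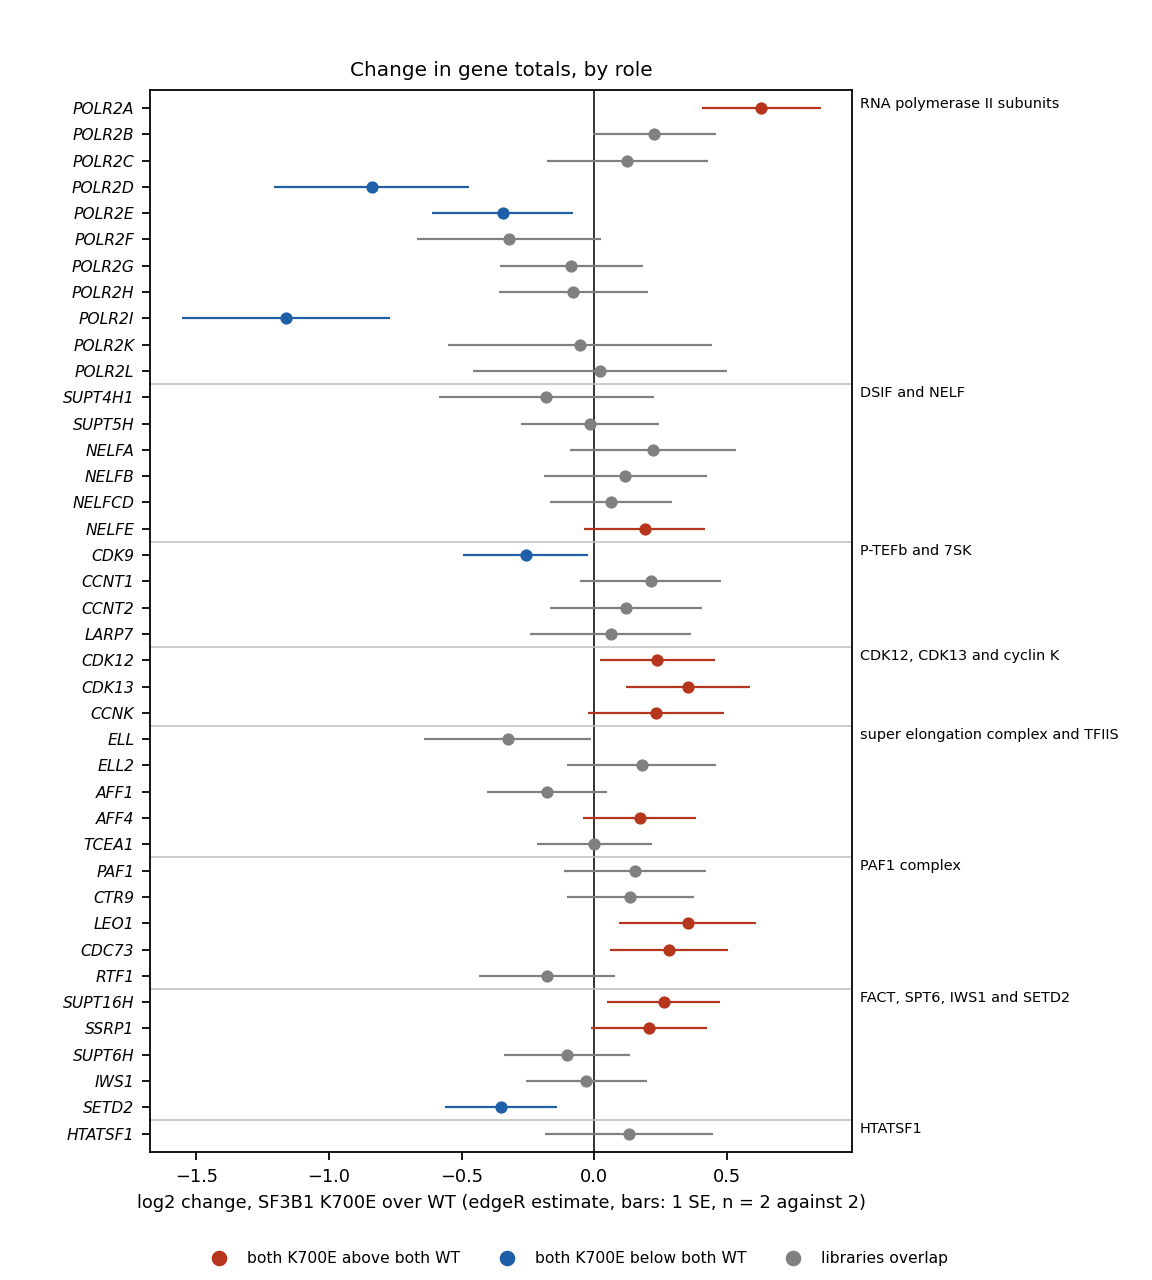
Log2 change in gene totals (SF3B1 K700E over WT, edgeR estimate with 1 SE on each side, 2 libraries against 2) for the 40 measured genes, grouped by role. Red and blue mark genes whose libraries do not overlap between genotypes, 10 higher and 5 lower; no adjusted p was under 0.05.

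A gene total grows with the number of introns, so levels were compared between genes as the mean CPM per intron of the most-read transcript. On that scale the highest WT level was that of TCEA1, at 30.5 CPM per intron, followed by SUPT6H at 25.7, CDC73 at 21.2, SUPT5H at 18.5, CDK12 at 18.3 and CDK9 at 17.3. The lowest was HTATSF1, at 1.99 CPM per intron. Among polymerase subunits POLR2A stood at 10.2 and POLR2B at 8.98 CPM per intron, while POLR2I stood at 3.16 and POLR2K at 2.52. All of these are levels of spliced RNA on chromatin.

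The balance of reads along the listed genes was compared by dividing each gene into 3 equal stretches and taking the log2 ratio of junction reads in the stretch at the 3′ end to those in the stretch at the 5′ end, with 0.5 reads added to each. Over the 29 listed genes with at least 10 reads at each end, the median ratio was 1.11 and 0.84 in WT and 0.99 and 0.75 in SF3B1 K700E. The genotypes interleaved, with a difference of -0.10 between group means. Over 7204 genes of the whole table the mean of the library medians was 0.53 ± 0.06 (SD, n = 2) in WT and 0.55 ± 0.15 (SD, n = 2) in SF3B1 K700E. Single genes, named after their values were seen, lay on both sides. SETD2 had a ratio of 0.11 and 0.21 in WT and 0.53 and 0.69 in SF3B1 K700E, and AFF1 had 2.18 and 2.46 in WT and 2.77 and 3.37 in SF3B1 K700E. POLR2G had 1.18 and 0.75 in WT and 0.09 and 0.28 in SF3B1 K700E, so the ratio was higher in the mutant in SETD2 and AFF1 and lower in POLR2G. Introns over 10 kb took 7.05% and 7.10% of annotated reads of the listed genes in WT and 6.72% and 6.08% in SF3B1 K700E. Over all genes they took 7.89% and 8.35% in WT and 8.21% and 7.47% in SF3B1 K700E, which overlapped. The all-gene means were 8.12% in WT and 7.84% in SF3B1 K700E.

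The same files show how the transcripts of these genes were spliced. At their splice sites 1181 junctions with canonical ends were seen, of which 658 are annotated and 523 are not. Unannotated junctions carried little of the signal, 1.80% and 1.69% of reads in WT and 2.05% and 1.81% in SF3B1 K700E. Both SF3B1 K700E libraries were higher by a narrow margin, and over all genes the means were 2.88% and 3.22%. Only 34 unannotated junctions had at least 10 reads over the 4 libraries, and they lay in 14 genes, with 7 in CDK12, 6 in SETD2 and 5 in SUPT6H. Of the 34, 16 used an unannotated acceptor, 10 an unannotated donor, and 8 joined annotated sites in an unannotated pair.

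Use of each junction was tested with edgeR's diffSpliceDGE relative to its cluster, the junctions linked to it through a chain of shared donors or acceptors. A cluster can hold more junctions than the single donor or acceptor that each share below refers to. Of 143 tested junctions in 24 listed genes, 0 passed the Benjamini-Hochberg adjusted threshold of 0.05, where 0.0656% of all 38110 junctions did. Without adjustment, p was under 0.05 for 1 higher junction, in RTF1, and 1 lower junction, in SETD2, where 2.18% and 0.766% of all junctions were. The limma voom fit also called 0 of the 143, with 1 higher and 0 lower before adjustment.

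The RTF1 junction had the smallest p, and its acceptor is of the kind associated with the mutant protein. It runs from chr15:41470393-41471151 on the plus strand, inside intron 7 of 17 of RTF1-201, and ends 20 nt before the annotated end of that intron at 41471171. Of the reads leaving the same donor, 0 of 20 and 0 of 25 used it in WT, and 4 of 29 and 7 of 35 in SF3B1 K700E. It was thus seen in both SF3B1 K700E libraries and in neither WT library. All 11 of its reads came from SF3B1 K700E, so it met the minimum of 10 reads through that genotype alone. Its p and shares therefore describe a junction that was selected through that genotype. Its share was 16.9% ± 4.39 (SD, n = 2) in SF3B1 K700E, while 0 of 45 pooled WT reads, taken with a limit of 3 reads, allows a share of up to 6.67%. Pooled SF3B1 K700E reads gave 11 of 64, or 17.2% with a 95% Wilson interval of 9.88% to 28.2%, and the edgeR adjusted p was 0.725. Such limits and all binomial intervals cover counting error only. An insertion of 20 nt is not a multiple of 3 and so shifts the reading frame between these exons of RTF1-201. The exon junction that the insertion would interrupt is shown as the last bases of the exon before intron 7 in lower case and the first bases of the next exon in capitals, from the GENCODE release 29 transcript.
RTF1-201 exons joined across intron 7: tgatgaagaagaggaGAAAGAAGAGATCCC

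Other acceptors 10 to 30 nt upstream with at least 10 reads were in SUPT5H, CDC73 and SUPT6H, and reads there were present in WT as well. The SUPT5H site, 20 nt upstream in intron 15 of 29, took 9 of 117 and 11 of 106 reads in WT and 2 of 92 and 15 of 196 in SF3B1 K700E. Its share was 9.03% ± 1.90 (SD, n = 2) in WT and 4.91% ± 3.87 (SD, n = 2) in SF3B1 K700E, lower in both mutant libraries with almost touching values. The CDC73 site, 13 nt upstream in intron 5 of 16, took 3 of 129 and 2 of 149 reads in WT and 6 of 173 and 9 of 287 in SF3B1 K700E. There the share was higher in both SF3B1 K700E libraries, at 3.30% ± 0.235 against 1.83% ± 0.695 (SD, n = 2 each). The SUPT6H site, 22 nt upstream in intron 28 of 36, took 2 of 109 and 7 of 74 reads in WT and 1 of 55 and 4 of 138 in SF3B1 K700E, which overlapped.

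The SUPT6H pair is shown because a GENCODE release 29 transcript that retains the intron (SUPT6H-205) gives the sequence of both competing acceptors, at chr17:28695310-28695339 and chr17:28695332-28695361 on the plus strand of GRCh38. Lower case is the intron side of each acceptor and capitals are the exon side.
SUPT6H acceptor 22 nt upstream: atcatctttgtcccttccagCTCAAATGTT
SUPT6H annotated acceptor: caaatgttctgtggatctagGTGGGAATGA

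Counting sites with any read at all, 26 unannotated acceptors lay 10 to 30 nt upstream of an annotated one in the listed genes. Most had 1 read. A few were seen in both SF3B1 K700E libraries and in neither WT library, on too few reads to be tested: AFF4 20 nt upstream with 3 and 2 reads, CDK12 19 nt upstream with 3 and 2 reads, and a second SUPT5H site 16 nt upstream with 2 and 2 reads. LEO1 went the other way, with 4 and 0 reads in WT and 1 and 0 in SF3B1 K700E at a site 23 nt upstream. Together such acceptors took 0.111% and 0.131% of reads of the listed genes in WT and 0.144% and 0.146% in SF3B1 K700E. The ranges did not overlap, but the pooled 95% Wilson intervals did, 0.0907% to 0.161% in WT and 0.116% to 0.181% in SF3B1 K700E. A large part came from the SUPT5H site 20 nt upstream, with 9 of 21 and 11 of 25 such reads in WT. In SF3B1 K700E that site held 2 of 33 and 15 of 45. Over all genes the mean share was 0.0425% in WT and 0.107% in SF3B1 K700E.

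SETD2 held the junction with the smallest unadjusted p in the lower direction, one side of an unannotated exon. The exon is 124 nt long, at chr3:47041360-47041483 inside intron 17 of 20, and its length is not a multiple of 3. Reads into it numbered 4 and 8 in WT and 2 and 1 in SF3B1 K700E. Reads out of it numbered 4 and 3 in WT and 2 and 1 in SF3B1 K700E, while 12 and 17 reads skipped it in WT and 25 and 21 in SF3B1 K700E. Inclusion, the mean of the reads into and out of the exon over that mean plus the skipping reads, was 25.0% and 24.4% in WT and 7.41% and 4.55% in SF3B1 K700E. The genotypes did not overlap, at 24.7% ± 0.393 and 5.98% ± 2.02 (SD, n = 2 each), and the edgeR adjusted p of the junction into the exon was 1.00. The exon junction into which this exon is inserted is shown with the upstream exon in lower case and the downstream exon in capitals.
SETD2-202 exons joined across intron 17: ccatgtgatcacaagGCAGACTCAGTGGGA

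An exon of the same kind was found in SUPT6H, 151 nt long at chr17:28688689-28688839 inside intron 24 of 36. Inclusion was 7.32% and 10.7% in WT and 5.36% and 3.23% in SF3B1 K700E, again lower in both mutant libraries. The reads behind it were few, 3 and 4 into the exon in WT and 2 and 2 in SF3B1 K700E, and 3 and 7 out of it in WT and 4 and 3 in SF3B1 K700E, against 38 to 75 skipping reads per library. Its length is also not a multiple of 3. The donor of this exon and the acceptor it is joined to are shown from SUPT6H-209, a transcript that retains the intron, with the exon side in capitals.
SUPT6H donor of the 151-nt exon: ATAGGTCCATgtgagtgcacgggcaagacc
SUPT6H acceptor that ends intron 24: cttttctgcctttcctccagCACTGACTCA

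SETD2 had further junctions among the 12 with the smallest p. An annotated junction of SETD2-204 at chr3:47081084-47083719 took 16 of 80 and 16 of 76 reads from its donor in WT and 28 of 78 and 31 of 95 in SF3B1 K700E. Its share was 20.5% ± 0.744 in WT and 34.3% ± 2.31 in SF3B1 K700E (SD, n = 2 each), so replicates were close and genotypes apart. An annotated junction of SETD2-205 at chr3:47062347-47064554 took 13 of 77 and 7 of 78 reads in WT and 0 of 68 and 8 of 90 in SF3B1 K700E. The first SF3B1 K700E library stood apart, and the second was near the lower WT library. Of the unannotated pairings, the one at chr3:47098082-47113875, which runs from the donor of intron 5 to the acceptor of intron 8, took 2 of 108 and 1 of 86 reads in WT and 4 of 79 and 6 of 91 in SF3B1 K700E. The one at chr3:47086315-47097954 took 3 of 62 and 5 of 67 reads in WT and 3 of 63 and 0 of 84 in SF3B1 K700E.

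CDK12 had the most unannotated junctions with at least 10 reads of any listed gene. The largest in share leaves from inside its last coding exon, exon 14 of CDK12-201, at a donor 292 nt before the end of the coding sequence, and joins an acceptor further downstream at chr17:39531022-39544248. Of the reads at that acceptor it took 13 of 31 and 7 of 21 in WT and 25 of 44 and 26 of 46 in SF3B1 K700E. The share was 37.6% ± 6.08 in WT and 56.7% ± 0.210 in SF3B1 K700E (SD, n = 2 each), with no overlap and an unadjusted p of 0.178 (edgeR adjusted p = 1.00). An annotated 3′ junction of CDK12-203, at chr17:39556414-39564759, took 13 of 18 and 14 of 19 reads from its donor in WT and 12 of 21 and 15 of 29 in SF3B1 K700E, or 73.0% ± 1.03 and 54.4% ± 3.83 (SD, n = 2 each). The unannotated donor and its acceptor are shown with the exon side in capitals, from CDK12-201 and from CDK12-207, a transcript that retains the intron.
CDK12 donor in exon 14: AGGGCACAGGgtcagtgcagtttccagggg
CDK12 downstream acceptor: cctgccattttcctttacagGTAGGAGCAA

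POLR2D, lower in its gene total, had an unannotated acceptor in intron 2 of 3, 888 nt upstream of the annotated one. It took 4 of 15 and 1 of 26 reads in WT and 6 of 19 and 7 of 17 in SF3B1 K700E. The WT libraries were far apart, at 15.3% ± 16.1, and the SF3B1 K700E libraries were above both, at 36.4% ± 6.79 (SD, n = 2 each). Of all POLR2D junction reads, 5 of 100 were unannotated in WT and 19 of 89 in SF3B1 K700E. Such reads are left out of the gene total, so the lower total and the use of this acceptor are not independent. Over the settings run, the log2 change of the POLR2D total lay between -0.98 and -0.59. The distance of 888 nt is a multiple of 3, but the junction reads do not show whether all of it stays in the RNA. The annotated exon junction across intron 2 is shown with the downstream exon in capitals.
POLR2D-201 exons joined across intron 2: tgccagtgttcgtagCTTGCTACTCCAGAA

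**Figure D4:**
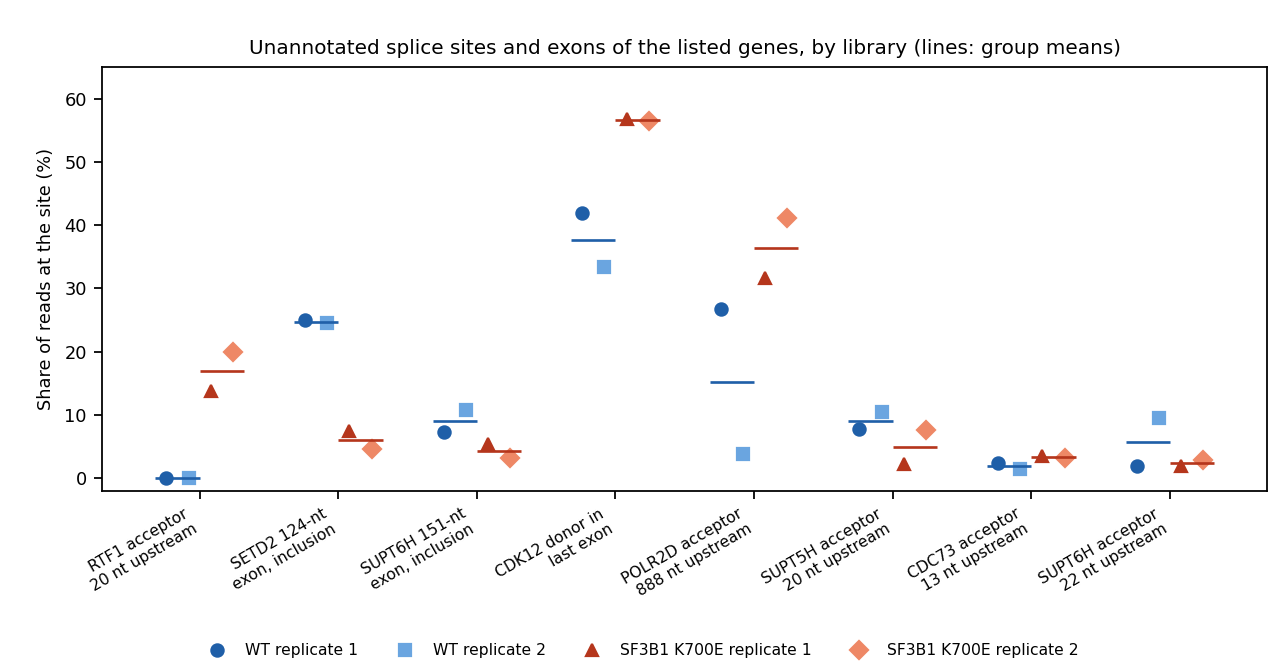
Share of reads, in percent, that used each unannotated site or included each unannotated exon, in each of the 4 libraries, with lines at group means. The RTF1 acceptor is at 0% in both WT libraries and at 13.8% and 20.0% in the SF3B1 K700E libraries, the SETD2 exon is lower in both SF3B1 K700E libraries, and the SUPT6H acceptor overlaps.

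The remaining junctions of the 12 with the smallest p were annotated ones in AFF4, TCEA1 and IWS1. The junction of AFF4-204 at chr5:132937194-132937648 took 25 of 100 and 13 of 77 reads at its acceptor in WT and 13 of 106 and 16 of 122 in SF3B1 K700E. One in TCEA1 took 3 of 99 and 3 of 107 reads in WT and 8 of 128 and 7 of 112 in SF3B1 K700E. One in intron 6 of IWS1-201 took 3 of 13 and 9 of 16 reads in WT and 12 of 17 and 30 of 47 in SF3B1 K700E. In each the genotypes did not overlap, and in each the edgeR adjusted p was 1.00.

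Other unannotated junctions with a mean share of at least 5% in a genotype had larger p-values. An acceptor 92 nt upstream in intron 6 of SUPT6H took 12 of 169 and 5 of 133 reads in WT and 17 of 161 and 21 of 249 in SF3B1 K700E. Its share was higher in both SF3B1 K700E libraries. An acceptor in intron 3 of CDK9, 194 nt upstream, took 9 of 27 and 4 of 34 reads in WT and 9 of 34 and 16 of 59 in SF3B1 K700E, so its WT libraries spanned the mutant ones. A donor 14 nt downstream in intron 11 of IWS1 took 8 of 69 and 5 of 41 reads in WT and 9 of 63 and 11 of 82 in SF3B1 K700E, a slightly higher share in both mutant libraries.

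The kinase gene CDK12 held 5 more, and at each the genotypes overlapped. An acceptor 17 nt inside the downstream exon took 8 of 30 and 10 of 22 reads in WT and 13 of 40 and 10 of 37 in SF3B1 K700E. An acceptor in intron 1 of CDK12-204 took 6 of 16 and 0 of 9 reads in WT and 4 of 22 and 4 of 32 in SF3B1 K700E. A donor in intron 2 of CDK12-203 took 2 of 40 and 1 of 21 reads in WT and 8 of 42 and 3 of 61 in SF3B1 K700E. Pairings of known splice sites not annotated together were also seen in CDK12. The one from the donor of intron 2 of CDK12-203 took 3 of 37 and 0 of 24 reads in WT and 2 of 34 and 8 of 63 in SF3B1 K700E. The one from the donor of intron 8 of CDK12-201 took 4 of 50 and 3 of 74 reads in WT and 11 of 93 and 2 of 99 in SF3B1 K700E.

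In the chromatin-related genes the remaining junctions overlapped as well. A donor in intron 12 of SETD2 took 2 of 69 and 2 of 69 reads in WT and 7 of 59 and 2 of 76 in SF3B1 K700E. A pairing from the donor of intron 7 of SETD2 took 9 of 108 and 8 of 86 reads in WT and 8 of 79 and 7 of 91 in SF3B1 K700E. An acceptor in intron 1 of SUPT6H took 2 of 16 and 2 of 25 reads in WT and 1 of 22 and 5 of 39 in SF3B1 K700E. The next of this kind were in SUPT16H and IWS1. A donor 5 nt upstream in SUPT16H took 9 of 40 and 3 of 35 reads in WT and 9 of 55 and 5 of 77 in SF3B1 K700E. A pairing from the donor of intron 5 of IWS1 took 7 of 27 and 5 of 28 reads in WT and 4 of 29 and 14 of 57 in SF3B1 K700E.

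The scaffold gene AFF4 had one overlapping site and 2 that did not overlap. Its acceptor in intron 1 took 3 of 78 and 7 of 71 reads in WT and 6 of 102 and 10 of 114 in SF3B1 K700E, which overlapped. Its acceptor in intron 12 took 3 of 57 and 0 of 43 reads in WT and 5 of 76 and 5 of 87 in SF3B1 K700E. Its pairing in intron 13 took 1 of 29 and 2 of 54 reads in WT and 4 of 81 and 5 of 87 in SF3B1 K700E, so at both of these the share was higher in both mutant libraries. The last of these junctions all overlapped between genotypes. An acceptor in intron 5 of CCNT2 took 0 of 14 and 7 of 34 reads in WT and 6 of 29 and 3 of 20 in SF3B1 K700E. A donor in intron 2 of POLR2E took 4 of 40 and 2 of 32 reads in WT and 0 of 23 and 7 of 53 in SF3B1 K700E. A pairing in TCEA1 took 10 of 109 and 6 of 99 reads in WT and 7 of 124 and 14 of 154 in SF3B1 K700E.

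Genes of the wider transcription machinery were counted the same way, from 5 lists of 126 genes with 118 tested. They comprise other elongation factors, polymerase assembly and tail-modifying enzymes, Integrator, initiation factors, and cleavage and termination factors. Of the 118, 0 passed the adjusted threshold under edgeR. Before adjustment, 3 higher and 3 lower genes had a p under 0.05, where 3.67% and 6.44% of all genes did, and the median log2 change was 0.09. In 30 of them (25.4%) both SF3B1 K700E libraries were above both WT libraries, where 19.4% of all genes were. In 11 (9.32%) both were below, where 20.1% of all genes were. MLLT3, a reader protein of the super elongation complex, had 37.9 and 20.7 CPM in WT and 12.9 and 13.1 CPM in SF3B1 K700E (log2 change -1.17, edgeR adjusted p = 0.220). RPRD1A, which binds the polymerase tail, had 105 and 145 CPM in WT and 79.5 and 60.5 CPM in SF3B1 K700E (log2 change -0.84, edgeR adjusted p = 0.242). Both were lower in both mutant libraries.

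RPAP1, an assembly factor of the polymerase, had 76.4 and 79.4 CPM in WT and 114 and 127 CPM in SF3B1 K700E, the same direction as POLR2A (log2 change 0.63, edgeR adjusted p = 0.332). CSTF2, a cleavage stimulation factor, had 28.4 and 31.6 CPM in WT and 46.2 and 49.9 CPM in SF3B1 K700E (log2 change 0.68, edgeR adjusted p = 0.387). For both, the replicates lay close and the genotypes apart. The cleavage nuclease gene CPSF3 had 114 and 124 CPM in WT and 156 CPM in both SF3B1 K700E libraries, a log2 change of 0.39.

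Of the Integrator subunits, INTS10 had 63.3 and 87.8 CPM in WT and 122 and 95.7 CPM in SF3B1 K700E. INTS7 had 109 and 139 CPM in WT and 202 and 147 CPM in SF3B1 K700E, so both were higher in both mutant libraries. CCNH, the cyclin of the TFIIH kinase, had 175 and 225 CPM in WT and 308 and 237 CPM in SF3B1 K700E, again without overlap. The TFIIH core subunit GTF2H2 had 6.72 and 18.3 CPM in WT and 29.5 and 17.5 CPM in SF3B1 K700E. The kinase gene CDK11A had 71.5 and 60.4 CPM in WT and 67.1 and 115 CPM in SF3B1 K700E. In GTF2H2 and CDK11A the genotypes overlapped, and both have near-identical copies in the genome, so their unique reads are uncertain. Adjusted p under edgeR ran from 0.566 to 0.695 for these genes and CPSF3.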

How the data were processed

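Uniquely mapped reads per splice junction were the counts deposited by the authors, made with STAR 2.7.10a on GRCh38.p12 per the file headers of the run logs, with GENCODE release 27 in the index and release 22 added at mapping; the deposited maximum overhang per junction was used as a filter in one alternative. Junctions were assigned to genes with GENCODE release 29, which held 99.9% of annotated junctions. Introns annotated in more than 1 gene (3.98% of annotated reads) were left out of gene totals. STAR counts only spliced reads, so unspliced nascent RNA was not measured.

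Gene totals were tested with edgeR 4.0.16 (R 4.3.3; filterByExpr, TMM, quasi-likelihood) and junction use with its diffSpliceDGE over junctions with at least 10 reads that share a donor or acceptor with another; p-values were Benjamini-Hochberg adjusted over the whole table. CPM were scaled by TMM library sizes. limma 3.58.1 voom, DESeq2 1.42.0 and other settings were alternatives. Both fits were tested on simulated data. The planted gene changes exceeded any in the listed genes, so that test does not show how well smaller changes are found. Pooled shares above 0 have 95% Wilson intervals, and a share of 0 has a limit of 3 reads. Python 3 with pandas made the summaries. Within genotypes, replicates differed beyond sampling noise (chi-square per degree of freedom 11.2 in WT and 17.3 in SF3B1 K700E), and the edgeR biological coefficient of variation was 21.7%.

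Values in every library were given for POLR2A, SUPT5H, CDK9, NELFE, PAF1, SUPT6H and SETD2, and for the 6 listed genes with the largest increase and the 6 with the largest decrease among those above median expression; for the 12 junctions with the smallest p, for unannotated acceptors 10 to 30 nt upstream with at least 10 reads, and for unannotated junctions with a mean share of at least 5%; and for the 2 genes of each pathway list with the smallest p. Values of other genes were added after they were seen. Members and lists were chosen with earlier results of these data known.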

Additional observations from a re-analysis of the deposited data

How the results depend on the processing

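No listed gene and no junction of a listed gene was called under any of the alternatives run, in either direction. Over all genes, the 36 higher and 65 lower calls became 63 and 154 with DESeq2, and leaving out each library in turn gave 0 to 98 higher and 0 to 227 lower; both zeros came from leaving out SF3B1 K700E replicate 2. Over all junctions, the 23 higher and 2 lower calls became 7 and 8 with limma voom, 37 higher with multiply mapped reads added, 37 higher with at least 20 reads, 47 higher with the whole gene as the cluster, 0 lower with at least 5 reads, and 1 to 3 higher and 0 lower leaving out each library. With the replicate number as a block, 51 higher and 85 lower genes and 6 higher and 0 lower junctions were called. The numbers were not taken as pairs in the main fit. Same-numbered samples had a deviation correlation of -0.228, which does not settle whether the numbers pair the samples. Crossing the numbers, a choice made after seeing the data, gave 134 higher and 326 lower genes and 23 higher and 1 lower junctions.

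The POLR2A log2 change stayed between 0.49 and 0.78 over its alternatives, with adjusted p from 0.0637 to 0.804. In 20 of the 40 listed genes the sign turned when some 1 library was left out, and in 2 of them, POLR2K and TCEA1, it turned under another setting too. Among listed genes with values in every library, leaving out each library in turn took SUPT5H from -0.31 to 0.25 (0.21 without WT replicate 1), SUPT6H from -0.35 to 0.13, RTF1 from -0.41 to 0.040, PAF1 from -0.12 to 0.40 and the SUPT6H acceptor 22 nt upstream from -1.79 to 0.52. The value on the other side came without the first SF3B1 K700E library for SUPT5H, SUPT6H and RTF1, without the second for PAF1, and without WT replicate 2 for the acceptor. The cause was not tested. The RTF1 acceptor kept a log2 change of 3.38 to 5.46, with adjusted p from 0.635 to 1.00. GTF2H2 (1.82, adjusted p = 0.0198) and MLLT3 (-1.52, adjusted p = 0.0130) passed the threshold without WT replicate 2, and RPRD1A (adjusted p = 0.0224) passed with the crossed block. GTF2H2 was 0.27 with multiply mapped reads added and 0.35 without WT replicate 1, where MLLT3 was -0.67. Over their alternatives adjusted p ran from 0.0198 to 1.00, 0.0130 to 0.857 and 0.0224 to 0.664 for these genes in turn. The difference in position of reads was 0.03 without WT replicate 1 and -0.24 without WT replicate 2. The difference in unannotated share, 0.187 percentage points, ran from 0.0688 to 0.305 when a library was left out and was 0.0575 over junctions with at least 10 reads. Of 523 unannotated junctions in listed genes, 34 had at least 10 reads and entered the test.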
